A study of Mus musculus with 14 samples.

Results

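Cells labelled macrophages and exposed to interleukin-4 (IL4) in a culture dish were set against cells so labelled, exposed to it inside leukemic bone marrow. The aim was to describe how their libraries differed. The comparison used the 4 culture libraries and the 3 marrow libraries whose labels name IL4, which are 7 of the 14 RNA libraries in the series, joined on gene symbol over the 9474 genes found in both deposited tables. All mice were C57BL/6J. The culture IL4 cells were monocytes from bone marrow, grown for 7 days with colony stimulating factor 1 (CSF1) and 20 ng/mL of murine IL4. CSF1 is given as 25 ng/mL in the growth protocol and as 20 ng/mL in the design text. The marrow IL4 cells carried F4/80, a surface protein of mouse macrophages, and were sorted 12 days after mice received acute myeloid leukemia (AML) cells with an IL4 cDNA. The controls were 4 libraries of the same culture with CSF1 alone and 3 libraries of F4/80+ cells from mice that received AML cells with an empty vector, so every marrow library came from a leukemic mouse. For the marrow IL4 level, the genotype of the AML cells and the age of the mice, the sources used here give nothing. Setting, source and time of IL4, leukemia, sorting and deposited table all change together between both IL4 groups and cannot be told apart.

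IL4 is a cytokine of type 2 immunity. It binds a receptor containing the IL4RA chain, Janus kinases then phosphorylate the transcription factor STAT6, and STAT6 switches on a set of genes known as alternative activation, with secreted proteins such as chitinase-like 3 and RELM-alpha, the enzyme arginase 1 and lectin receptors. CSF1 drives monocytes to become large adherent macrophages in a dish, while macrophages resident in marrow nurse red cell precursors, recycle iron and clear dying cells. F4/80 is also carried at lower levels by other myeloid cells, such as monocytes and eosinophils.

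Library depth was similar in both groups, with 616540 to 766829 recovered reads in culture IL4 and 527320 to 797715 in marrow IL4, and a median of 24 to 40 reads per gene. Values are log2 levels centred on the median of each library, and differences are marrow IL4 minus culture IL4, so a positive value is higher in marrow. Reads of a gene are given for culture libraries 1 to 4 and marrow libraries 1 to 3 in that order, and an error after ± is the standard error of the log2 difference (n = 4 and 3). Adjusted p-values come from limma over all 9474 genes, two-sided. No label states that each library had its own culture or animal, so the p-values speak of the spread among these libraries only, which may be technical. The tables were deposited separately. Before centring, the median of a marrow IL4 library lay on average 0.42 (log2) above that of a culture IL4 library. Medians were 4.08 to 4.11 in culture IL4 and 4.46 to 4.54 in marrow IL4. The culture controls, in the same table as culture IL4, stood at 4.35 to 4.52, and the marrow controls at 4.59 to 4.64. Culture IL4 was thus the low group, and the cause was not tested.

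The sorted gate was checked first. Emr1, the F4/80 gene (Adgre1, chr17:57358691-57483527, plus strand, GRCm38), had 912, 798, 745 and 784 reads in culture and 37, 74 and 126 in marrow, 12.9-fold lower (-3.69 ± 0.25, adjusted p = 2.4e-06). Neutrophil genes went the other way. S100a9, a calcium-binding protein that neutrophils carry in bulk, had 0 reads in each culture IL4 library and 15389, 12728 and 18320 in marrow, at least 17940-fold higher against a floor of 3 reads over the group (an interval or floor on reads covers counting error only). Its partner S100a8 had 0, 0, 1 and 1 reads against 7417, 5755 and 10065, and the neutrophil granule protein gene Ngp had 0, 1, 0 and 1 against 6406, 4446 and 5869. All 7 measured neutrophil markers were higher in marrow. Their summed share of reads was 0.0224% to 0.0519% in culture IL4 and 4.66% to 5.80% in marrow IL4, and 0.0265% to 0.0381% and 6.21% to 7.20% in the culture and marrow controls. The 23 macrophage identity genes with recovered reads summed to 4.50% to 4.93% of reads in culture IL4 and 0.669% to 0.785% in marrow IL4. In the culture and marrow controls they summed to 2.97% to 4.68% and 0.696% to 0.750%. Gpnmb alone took 1.66% to 2.01% of reads in culture IL4 and at most 0.0005% in marrow IL4. The library group labelled F4/80+ macrophages from marrow thus carried neutrophil transcripts at a level that the culture did not, with IL4 and without. The part of neutrophil RNA in each difference below was not tested, and in bulk samples fewer cells of a type and less RNA per cell cannot be told apart.

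Other markers of marrow cells took small shares of the reads. The eosinophil granule gene Prg2 had 0 reads in every culture IL4 library and 122, 71 and 132 in marrow, at least 125.5-fold higher. Of the other 2 eosinophil markers measured, Ear2 was lower in marrow and the receptor gene Ccr3 was not called (-0.34), and the list's summed share of reads was 0.0619% to 0.217% in culture IL4 and 0.0374% to 0.0512% in marrow IL4. Among 5 measured progenitor and blast markers 4 were higher in marrow and 1 lower, at a summed 0.0163% to 0.0188% of reads in culture and 0.0314% to 0.0367% in marrow. Cd34, a surface protein of progenitors, had 0, 1, 1 and 1 reads against 22, 16 and 42, a ratio of reads of 30.9 (95% exact interval 10.2 to 153). Genes of the Y chromosome also separated the settings. The Y-linked genes Ddx3y, Eif2s3y, Kdm5d and Uty had 0 reads in all 3 marrow IL4 libraries, while Ddx3y, an RNA helicase gene, had 46, 70, 75 and 50 in culture. The same genes were at 0 in the marrow controls as well, and the lowest value in any culture IL4 library was 19 reads, for Kdm5d. Sex of the source and setting cannot be told apart in these libraries.

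Culture IL4 and marrow IL4 libraries differed at most measured genes, about evenly in both directions. At an adjusted p below 0.05, 5256 of 9474 genes (55.5%) differed, 2615 (27.6%) higher in marrow and 2641 (27.9%) lower. Without centring the split was 4072 (43%) and 1802 (19%), so where a list's counts turn with the scaling they are given both ways. The median difference over all genes was 0.04. Over 2-fold and called were 1653 genes higher and 1812 lower, and over 8-fold 314 and 462. The values of the groups did not overlap for 5508 genes (58.1%), 2768 with marrow higher (29.2%) and 2740 with marrow lower (28.9%). Pearson's r between libraries, across genes, was 0.958 to 0.972 within culture IL4, 0.963 to 0.968 within marrow IL4 and 0.723 to 0.751 between them. Genes are not independent replicates, so these describe the libraries only. Each list below is described by its counts beside these all-gene shares.

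The largest differences by the naming rule began with neutrophil and granule genes on the marrow side. After S100a9, S100a8 and Ngp came Chil1, a chitinase-like gene of neutrophils (0, 0, 0 and 1 reads against 351, 286 and 503), then Pram1, an adaptor of myeloid cells, and Rab27a, a small GTPase of granule release (0, 1, 0 and 1 against 250, 178 and 315). Prg2, the inhibitory lectin Siglece, the tubulin gene Tuba4a and Rab44 completed the first 10. On the culture side Mmp12, the macrophage elastase, had 24117, 27888, 22325 and 10999 reads against 0, 8 and 8 (ratio of reads 4602, interval 2834 to 8052). Gpnmb, a glycoprotein of lipid-laden and bone-resorbing macrophages, had 14887, 15419, 13074 and 10256 against 2, 1 and 4. Mmp13, a collagenase, had 1457, 2271, 1048 and 150 against 2, 0 and 0. Flrt2 and Nes had 0 reads in all marrow IL4 libraries, at least 588.8-fold and 169.4-fold lower, and Cd36, Ctsk, Sdc1, C3ar1 and Plk2 completed the list.

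**Figure D1:**
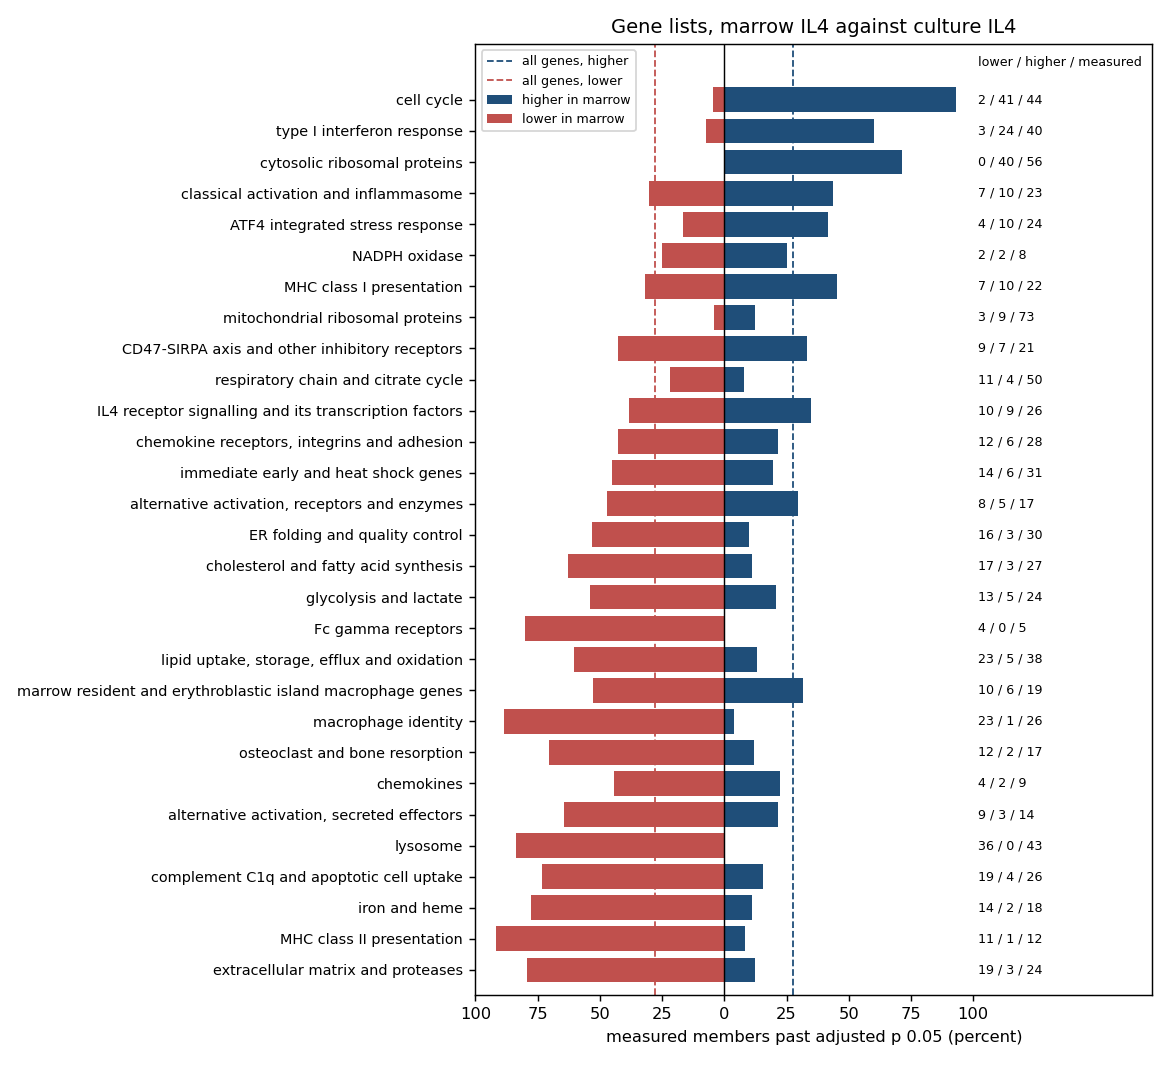
Share of each gene list's measured members past an adjusted p of 0.05, marrow IL4 against culture IL4, in percent. Bars to the right are members higher in marrow, bars to the left members lower, dashed lines mark the shares over all genes (27.6% and 27.9%), and the counts at the right give lower, higher and measured members. Cell cycle has 41 higher of 44, and MHC class II has 11 lower of 12, macrophage identity 23 lower of 26 and lysosome 36 lower of 43. Lists are ordered by their median difference, from cell cycle to extracellular matrix (19 lower of 24).

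The secreted products of alternative activation were mostly lower in marrow, while the abundant Chil3 did not pass the threshold. Of 14 measured genes 9 were lower and 3 higher, with a median of -2.30. Chil3, the chitinase-like protein also called Ym1 (chr3:106147554-106167564, minus strand), had 24492, 27682, 16829 and 15897 reads in culture and 15986, 15723 and 24205 in marrow. It made up 2.58% to 3.61% of reads in culture IL4 and 2.90% to 3.03% in marrow IL4. Its centred difference of -0.36 ± 0.16 missed the threshold (adjusted p = 0.086) and turned to 0.06 without centring and 0.33 with quantile normalization. Monocytes and immature neutrophils also express Chil3, and the marrow controls held 0.330% to 0.439% of reads on it, against 2 to 6 reads per library in the culture controls.

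Retnla, which encodes RELM-alpha (chr16:48842551-48844461, plus strand), had 5598, 4902, 4641 and 11618 reads in culture and 895, 1061 and 3037 in marrow, 4.93-fold lower (-2.30 ± 0.39, adjusted p = 0.00085). Culture library 4 was the highest and the groups did not overlap. No library of either control group had a Retnla read. Arg1, the arginase that turns arginine into ornithine and urea (chr10:24915221-24927484, minus strand), had 8038, 8497, 6839 and 1714 reads against 94, 169 and 486, 30.4-fold lower (-4.93 ± 0.54, adjusted p = 5.1e-05). The lowest culture library, the fourth, still had more than the highest marrow library. Control libraries had at most 2 Arg1 reads.

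Further secreted products lay on both sides. Fn1, the matrix protein fibronectin, had 3528, 2984, 2320 and 2123 reads against 69, 76 and 277 (-4.74 ± 0.31). Igf1, a growth factor, had 1129, 1249, 1002 and 1004 against 16, 38 and 33 (-5.48 ± 0.24, adjusted p = 2.3e-07). The eosinophil-associated ribonuclease genes Ear2 (578, 471, 587 and 1328 against 81, 176 and 271) and Rnase2a (646, 510, 434 and 676 against 27, 114 and 163) were lower by the same pattern, at -2.29 and -2.98. These ribonucleases belong to a family of near-identical genes, as Chil3 does with its paralogs, and no source used here says how reads were divided among copies. Hgf, the hepatocyte growth factor, went the other way, with 14, 6, 10 and 24 reads against 135, 197 and 278, 13.8-fold higher in marrow (3.79 ± 0.43, adjusted p = 6.1e-05). The chemokine gene Ccl24 was also higher (37, 28, 11 and 27 reads against 46, 91 and 76, 1.33 ± 0.43, adjusted p = 0.025), a call lost without marrow library 2 (adjusted p = 0.1). Tgfbi, a secreted matrix protein, was 0.82 ± 0.27 higher with overlapping groups, and this call was lost without marrow library 1 (adjusted p = 0.097) or 3 (0.095).

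**Figure D2:**
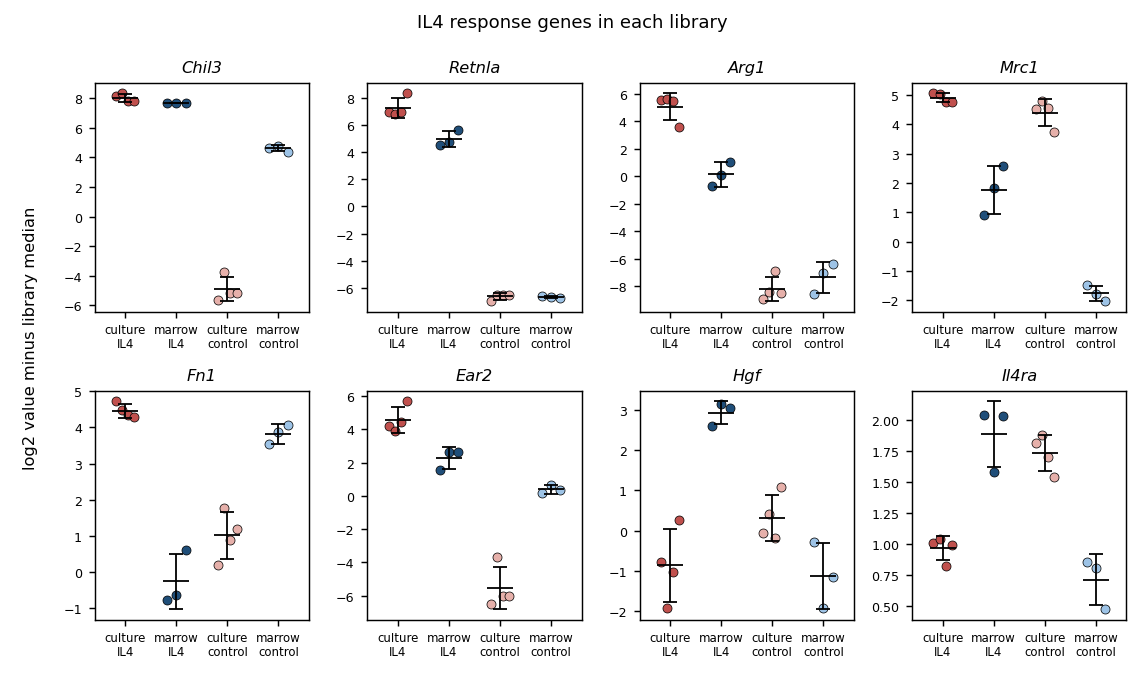
Centred log2 level per library of 8 genes of the IL4 response in the 4 groups, with points for libraries and the mean ± SD of each group. Arg1 and Retnla stand near the bottom in both control groups and higher in culture IL4 than in marrow IL4, Chil3 stands at 8.03 in culture IL4 and 7.67 in marrow IL4, and Hgf stands highest in marrow IL4.

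Receptors and enzymes of the same program were split. Of 17 measured genes 8 were lower and 5 higher, with a median of -0.48, and leaving out any of the 3 marrow libraries left 3 higher. Mrc1, the mannose receptor CD206, had 1051, 1016, 747 and 699 reads in culture and 53, 101 and 255 in marrow, 8.78-fold lower (-3.13 ± 0.32, adjusted p = 3.1e-05). The scavenger receptor gene Msr1 had 242, 292, 228 and 125 reads against 5, 3 and 12 (-5.27 ± 0.30). Anpep, the aminopeptidase CD13, had 797, 694, 682 and 714 against 7, 15 and 19 (-5.96 ± 0.22). No marrow library reached the lowest culture library for any of these 3 genes, as for 28.9% of all genes by centred level. Pdcd1lg2, a ligand of the inhibitory receptor PD-1, had 153, 174, 135 and 103 reads against 8, 12 and 18 (-3.65 ± 0.19), and Clec7a, the beta-glucan receptor dectin-1, had 892, 1013, 763 and 661 against 83, 75 and 158 (-3.22 ± 0.15). The lectin gene Mgl2 differed least of those called lower, with 511, 592, 465 and 344 reads against 131, 214 and 274 (-1.43 ± 0.19, adjusted p = 0.00016). Cd163, the hemoglobin scavenger receptor, was higher in marrow at low depth, with 0, 2, 3 and 7 reads against 15, 23 and 42, a ratio of reads of 7.73 (interval 4.19 to 15.6).

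Promoters of 4 of these genes are shown because they hold a STAT-type palindrome and the genes took different sides of the threshold. They run 5′ to 3′ over the 250 bases before the RefSeq transcript start (GRCm38.p6), with the match in capitals. The letters searched on both strands were TTCNNNNGAA, the spacing preferred by STAT6, which 1923 of 32851 promoters of this length hold (5.85%), and TTCNNNGAA, the spacing of other STAT proteins, which 2306 hold (7.02%). The windows are chr16:48842359-48842608 (plus) for Retnla, chr19:29410669-29410918 (plus) for Pdcd1lg2, chr6:129472780-129473029 (minus) for Clec7a and chr3:106167565-106167814 (minus) for Chil3.
Retnla: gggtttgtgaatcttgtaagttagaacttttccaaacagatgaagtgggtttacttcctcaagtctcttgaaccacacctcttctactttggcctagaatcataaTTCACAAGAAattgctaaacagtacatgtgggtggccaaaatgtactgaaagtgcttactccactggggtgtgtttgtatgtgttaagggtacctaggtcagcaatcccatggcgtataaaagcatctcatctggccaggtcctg
Pdcd1lg2: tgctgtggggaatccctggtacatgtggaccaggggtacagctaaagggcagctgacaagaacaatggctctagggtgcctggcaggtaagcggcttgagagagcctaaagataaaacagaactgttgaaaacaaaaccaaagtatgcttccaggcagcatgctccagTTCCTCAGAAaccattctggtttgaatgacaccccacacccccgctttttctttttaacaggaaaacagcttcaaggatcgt
Clec7a: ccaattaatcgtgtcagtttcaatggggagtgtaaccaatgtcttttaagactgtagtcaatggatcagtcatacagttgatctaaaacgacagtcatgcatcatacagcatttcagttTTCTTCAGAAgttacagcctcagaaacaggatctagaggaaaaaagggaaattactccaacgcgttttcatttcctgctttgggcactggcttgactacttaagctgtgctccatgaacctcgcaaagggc
Chil3: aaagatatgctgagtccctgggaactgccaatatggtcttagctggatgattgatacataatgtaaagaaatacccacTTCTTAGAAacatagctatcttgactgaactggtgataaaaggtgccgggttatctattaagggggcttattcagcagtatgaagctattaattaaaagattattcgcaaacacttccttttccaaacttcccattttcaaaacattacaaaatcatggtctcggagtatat
Retnla, Pdcd1lg2 and Clec7a each held 1 match to TTCNNNNGAA, beginning at positions -145, -82 and -131 from the start. Chil3 held none and 1 match to TTCNNNGAA, at -172. No match to either was found in this window of Mrc1, Ear2, Rnase2a, Mgl2, Hgf or Cd163. A match describes letters only, and these libraries hold no binding data.

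The receptor chain for IL4 was higher in marrow, while several transcription factors downstream of it were lower. Il4ra had 62, 63, 47 and 50 reads in culture and 115, 84 and 174 in marrow, 1.90-fold higher (0.93 ± 0.16, adjusted p = 0.00093) with no overlap. In the controls the order was turned, with a difference of -1.03. Stat6 itself had 257, 254, 213 and 199 reads against 225, 160 and 291 and did not pass (-0.25 ± 0.14, adjusted p = 0.17), and it turned to 0.17 without centring. Of 26 measured genes of IL4 receptor signalling and its factors 9 were higher and 10 lower, a median of -0.15.

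Feedback inhibitors of cytokine signalling were split. Socs3, a feedback inhibitor of Janus kinases, had 4, 3, 0 and 1 reads against 40, 9 and 73 (3.86 ± 0.82, adjusted p = 0.0031). The phosphatase gene Ptpn6 (SHP-1), which acts below inhibitory receptors, had 140, 126, 112 and 122 against 400, 399 and 565 (1.66 ± 0.13), and the MAP kinase phosphatase gene Dusp6 was 1.72 ± 0.28 higher. Socs2 (-3.44, adjusted p = 0.0022) and Socs1 (-1.04, adjusted p = 0.024), of the same family as Socs3, were lower. Transcription factors and chromatin regulators of the list were split too. Egr2 had 253, 278, 202 and 244 reads against 2, 10 and 7 (-5.56 ± 0.39, adjusted p = 3.1e-06). Pparg, the lipid-sensing nuclear receptor, had 93, 83, 70 and 82 against 9, 11 and 18 (-2.88 ± 0.18). Irf4 had 71, 70, 59 and 63 against 13, 19 and 24 (-2.01 ± 0.15), and Cebpb, which drives Arg1 in macrophages, was also lower (-2.32 ± 0.25). For these 4 factors the groups stood apart in every library, as they did in this direction for 28.9% of all genes. The histone demethylase gene Kdm6b (1.67), Myc (0.87) and Tfec (0.84) were called higher in marrow, and Stat6 (-0.25), Bcl6 (-0.11) and Rela (-0.08) were not called.

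Genes on the macrophage identity list, some of them shared with other myeloid cells, were lower in marrow nearly throughout. Of 26 measured identity genes 23 were lower and 1 higher, a median of -2.03. Csf1r, the CSF1 receptor, had 1211, 1089, 1048 and 1363 reads in culture and 65, 104 and 219 in marrow, 11.6-fold lower (-3.53 ± 0.26, adjusted p = 3.6e-06). The lysosomal marker Cd68 had 998, 1087, 996 and 693 against 17, 27 and 60 (-5.10 ± 0.25). Itgam, the CD11b chain shared by macrophages, monocytes and neutrophils, differed less, with 1808, 1816, 1553 and 1047 reads against 868, 711 and 1163 (-0.94 ± 0.16, adjusted p = 0.00076). Spi1, the myeloid master factor PU.1 that neutrophils also carry, had 195, 213, 171 and 175 reads against 242, 178 and 267 and did not pass (0.09, adjusted p = 0.66), though it did without centring (0.50, adjusted p = 0.013). The 1 list member higher in marrow was Csf3r, the G-CSF receptor gene of neutrophils and monocytes, with 44, 35, 43 and 25 reads against 292, 197 and 671 (3.04 ± 0.28). The neutrophil marker share given above moved the opposite way to this list, and its part in these differences was not tested.

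**Figure D3:**
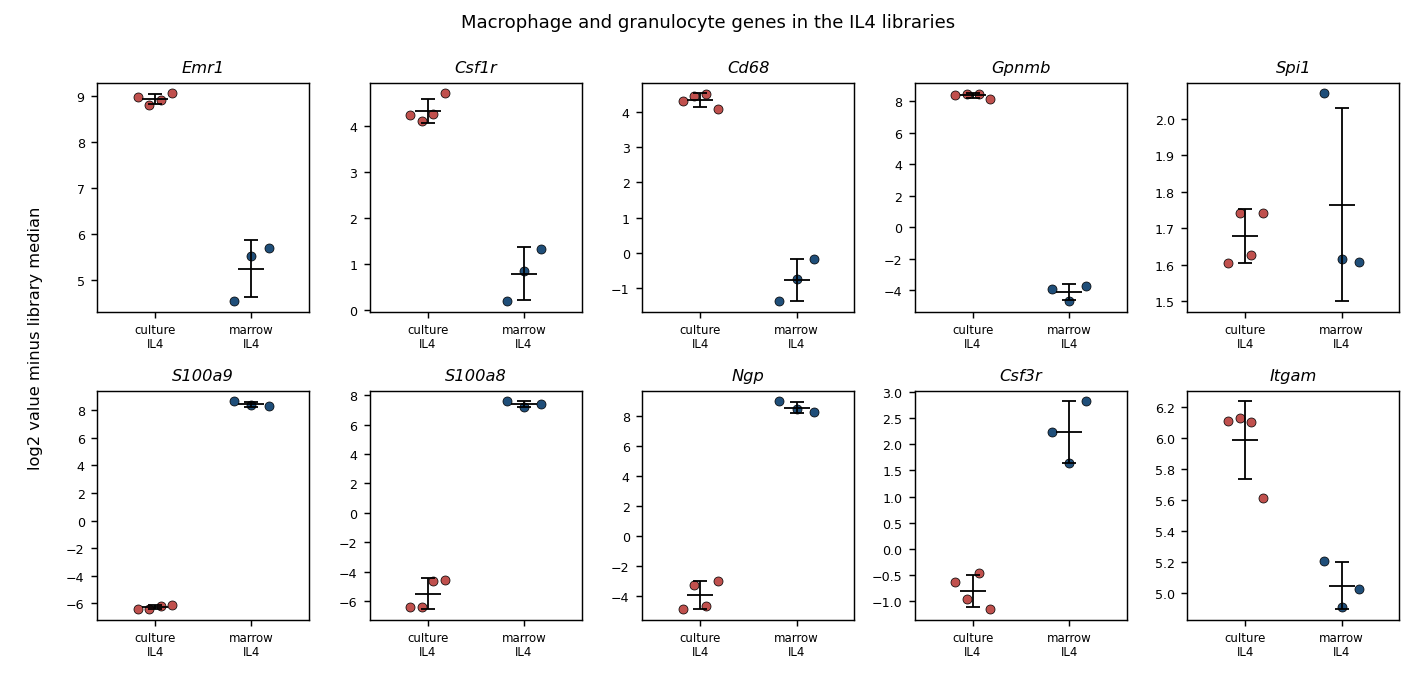
Centred log2 level per library of 10 identity and marker genes in culture IL4 and marrow IL4, with points for libraries and the mean ± SD. Emr1 stands at 8.94 in culture and 5.25 in marrow and Csf1r at 4.33 and 0.80. The neutrophil genes S100a8 and S100a9 stand at the bottom in culture and above 7 in marrow. Levels hold an offset for each gene, so they compare groups within a gene and not genes with each other.

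Genes known from resident marrow macrophages were divided, and those named below as higher in marrow had few reads in culture. Of 19 measured genes 6 were higher and 10 lower, a median of -1.20. Slc40a1, the iron exporter ferroportin, had 0, 1, 3 and 13 reads in culture and 112, 116 and 175 in marrow, a ratio of reads of 27.5 (interval 16.9 to 47.6, adjusted p = 0.00076). Vcam1, the adhesion molecule of erythroblastic islands, had 2, 2, 1 and 0 against 27, 41 and 81 (4.77 ± 0.47). Axl, a receptor tyrosine kinase for dying cells, had 3, 8, 3 and 11 against 26, 61 and 99 (3.03 ± 0.54). In each of these genes the lowest marrow library exceeded the highest culture library, as for 29.2% of all genes by centred level. Siglec1, the CD169 sialoadhesin that marks resident macrophages, had 41, 28, 35 and 58 reads against 23, 68 and 91 and did not pass (0.24, adjusted p = 0.65), with overlapping groups and a turn to -0.05 without marrow library 2. Stab1, a scavenger receptor, had 27, 23, 40 and 26 against 1, 0 and 1, a ratio of reads of 50.05 (interval 13.6 to 418).

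Transcripts for iron storage and heme breakdown lay on the culture side. Of 18 iron and heme genes 14 were lower in marrow and 2 higher, a median of -2.45. Hmox1, the heme oxygenase, had 498, 560, 460 and 314 reads against 41, 49 and 145, 7.60-fold lower (-2.93 ± 0.27). Fth1, the ferritin heavy chain, for which no whole reads were recovered, stood at a centred log2 level of 5.88 ± 0.10 in culture and 2.46 ± 0.15 in marrow (SD), 10.7-fold lower. The exporter Slc40a1 and the store Fth1 therefore differed in opposite directions.

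Complement C1q and receptors for dying cells were lower in marrow, and complement C3 was far higher. Of 26 measured uptake genes 19 were lower and 4 higher, a median of -2.42. C1qa, C1qb and C1qc encode the 3 chains of C1q, which tags dying cells. C1qb had 365, 361, 363 and 587 reads in culture and 31, 44 and 110 in marrow, 8.64-fold lower (-3.11 ± 0.31), and C1qc was 6.79-fold and C1qa 2.82-fold lower. For C1qa the lowest culture and the highest marrow library both had 93 reads, which centring set apart. Cd36, a receptor for oxidized lipid and dying cells, had 5484, 6028, 5644 and 4339 reads against 3, 12 and 33 (-9.05 ± 0.50). Trem2, a lipid receptor, had 951, 810, 729 and 577 against 4, 2 and 7, and the C3a receptor gene C3ar1 had 1238, 1172, 1008 and 786 against 2, 2 and 7. Mertk, a kinase receptor for dying cells, had 57, 36, 38 and 70 against 10, 10 and 23 (-2.01 ± 0.29). Thbs1, a bridging protein, had 83, 113, 202 and 17 reads against 0, 1 and 0, with the fourth culture library the lowest of its group. C3 had 15, 17, 11 and 25 reads in culture and 2546, 2636 and 3610 in marrow, 152-fold higher (7.25 ± 0.26, adjusted p = 6.7e-08). The transporter gene Abca7 was 8.86-fold higher in marrow (34, 31, 17 and 27 reads against 258, 234 and 323).

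The study's title concerns phagocytosis and CD47, the surface protein that tells a macrophage not to engulf a cell. Cd47 (chr16:49800533-49915010, plus strand) was higher in the marrow IL4 cells, with 142, 127, 103 and 109 reads in culture and 267, 259 and 408 in marrow, 2.25-fold (1.17 ± 0.12, adjusted p = 3.1e-05). The control groups differed by 1.10, and the difference between both contrasts was 0.07 (adjusted p = 0.81). Sirpa, the receptor that reads CD47 on the macrophage, was lower, with 1309, 1230, 1011 and 1054 reads against 316, 266 and 522, 3.67-fold (-1.88 ± 0.13, adjusted p = 2.4e-06). Ligand and receptor thus lay on opposite sides in every library. Over all genes, 58.1% had groups without overlap. These are levels in the sorted cells and not in the leukemic cells.

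Other inhibitory pairs differed gene by gene. Over the 21 measured genes of the CD47-SIRPA axis and other inhibitory receptors 7 were higher and 9 lower, a median of 0.03. Cd24a, a ligand of inhibitory Siglec receptors and a neutrophil and blast surface protein, had 2, 6, 1 and 3 reads against 403, 387 and 508 (ratio of reads 125.3, interval 71.5 to 243). Siglece had 0 in all culture libraries and 75, 81 and 153 in marrow, at least 119-fold higher. Cd274, the PD-L1 gene, was on the culture side with 317, 296, 264 and 152 against 18, 22 and 30 (-3.59 ± 0.20). Of 5 Fc gamma receptor genes, which bind antibody-coated targets, 4 were lower and 0 higher, and 2 were lower without centring (with 1 higher) or with quantile normalization. The high-affinity receptor gene Fcgr1 had 28, 17, 8 and 15 reads against 2, 4 and 3, and Fcgr3 was 2.41-fold lower. Their shared signalling chain Fcer1g had 286, 286, 250 and 222 reads against 260, 284 and 367 and did not pass (0.03, adjusted p = 0.83).

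Transcripts for antigen presentation on MHC class II were mostly lower in marrow. Of 12 measured genes 11 were lower and 1 higher, a median of -2.50. Cd74, the invariant chain, had 3237, 3583, 3172 and 5650 reads in culture and 454, 625 and 683 in marrow, 7.42-fold lower (-2.89 ± 0.26, adjusted p = 1.4e-05). The class II chain gene H2-Ab1 had 1066, 1108, 970 and 1889 against 164, 271 and 229 (-2.66 ± 0.30), and Ciita, the switch of class II transcription, had 93, 73, 79 and 181 against 13, 44 and 26 (-2.17 ± 0.46, adjusted p = 0.0031). Culture library 4 was the highest for all of them. Ctss, the cathepsin that trims the invariant chain, had 5931, 6033, 5083 and 5226 against 69, 136 and 168 (-5.75 ± 0.20). The member higher in marrow was the costimulatory gene Cd86, with 3, 4, 2 and 0 reads against 8, 14 and 14 (ratio of reads 4.64, interval 2.19 to 10.9), a call lost without marrow library 2 (adjusted p = 0.053).

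Transcripts of class I presentation and of the type I interferon response leaned to marrow. Of 22 class I genes 10 were higher and 7 lower, a median of 0.18, with 11 and 2 without centring and 4 lower without marrow library 3. The peptide transporter gene Tap1 was 4.68-fold higher (49, 31, 28 and 19 reads against 169, 163 and 152), and Nlrc5, the switch of class I transcription, had 6, 6, 2 and 3 against 46, 51 and 41 (3.22 ± 0.33). The light chain gene B2m did not pass (-0.17, adjusted p = 0.38, 0.25 without centring and 0.11 with quantile normalization), and the nonclassical gene H2-T23 was 3.37-fold lower. Of 40 interferon response genes 24 were higher and 3 lower, a median of 1.14. Irf7, an interferon-inducible factor, had 4, 1, 0 and 0 reads against 52, 68 and 154, a ratio of reads of 63.5 (interval 26.9 to 197). The antiviral enzyme gene Oas2 had 2, 0, 1 and 0 against 32, 36 and 62. Classical activation and inflammasome genes were 10 higher and 7 lower of 23, with Nfkbiz, an NF-kappaB cofactor, 4.21 ± 0.59 higher and the endotoxin receptor gene Tlr4 lower (-1.43 ± 0.24).

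Lysosome genes were on the culture side, while NADPH oxidase genes were split. Of 43 lysosome genes 36 were lower in marrow and 0 higher, a median of -2.31 (34 and 2 without centring). Ctsl, a cathepsin, had 7874, 7233, 4283 and 1789 reads against 45, 74 and 141, 66.1-fold lower (-6.05 ± 0.42), and Ctsd had 6294, 5577, 5040 and 5057 against 496, 467 and 782 (-3.45 ± 0.11). Lamp1, a lysosomal membrane protein, was 4.68-fold lower. The 8 NADPH oxidase genes, which make the oxidative burst, were 2 higher and 2 lower (6 and 2 without centring). Rac2, its GTPase in blood cells, had 177, 170, 123 and 135 reads against 988, 900 and 1374 (2.65 ± 0.12), while the catalytic subunit gene Cybb differed by 0.24 (adjusted p = 0.14), and by 0.65 and past the threshold without centring.

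Bone resorption and matrix genes were lower in marrow with a single large exception. Of 17 osteoclast genes 12 were lower and 2 higher (median -2.11), and of 24 matrix and protease genes 19 were lower and 3 higher (median -2.98). Ctsk, the collagen-degrading cathepsin of osteoclasts, had 357, 306, 294 and 289 reads against 0, 1 and 0, a ratio of reads of 1075 (interval 192.6 to 42500). Acp5, the tartrate-resistant phosphatase, had 296, 312, 207 and 142 against 14, 24 and 70 (-3.15 ± 0.36). The exception was Mmp9, a gelatinase stored in neutrophil granules, with 31, 60, 41 and 10 reads in culture and 1378, 764 and 1511 in marrow (5.09 ± 0.47). Mmp9 is also on the neutrophil marker list, and Mmp12 and Mmp13 were among the 10 genes furthest on the culture side.

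Lipid handling was also lower in marrow as a list. Of 38 lipid uptake, storage, efflux and oxidation genes 23 were lower and 5 higher (median -1.04). Lpl, the lipoprotein lipase, had 7311, 7715, 6284 and 5207 reads against 32, 88 and 95, 114-fold lower (-6.84 ± 0.28, adjusted p = 1.4e-07). The cholesterol exporter gene Abca1 had 1208, 1100, 969 and 808 against 39, 11 and 50 (-5.33 ± 0.36). Acsl1, which activates fatty acids, went the other way (63, 42, 38 and 24 reads against 258, 140 and 227). Cholesterol and fatty acid synthesis had 17 lower and 3 higher of 27 (median -0.93), 9 and 4 without centring and 11 lower without marrow library 1. The fatty acid synthase gene Fasn was 2.39-fold higher in marrow (adjusted p = 0.012).

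Transcripts for sugar use differed by isoform. Of 24 glycolysis genes 13 were lower in marrow and 5 higher, a median of -0.94, and 3 were higher without marrow library 3. The glucose transporter gene Slc2a1 had 362, 424, 353 and 104 reads in culture and 16, 23 and 55 in marrow (-3.48 ± 0.43), with culture library 4 well below its group. The transporter gene Slc2a3, which neutrophils use, had 3, 3, 4 and 0 against 329, 198 and 373, a ratio of reads of 104 (interval 56.5 to 218). Ldha, a lactate dehydrogenase, was 2.70-fold lower and the myeloid hexokinase gene Hk3 1.60-fold higher. Of 50 respiratory chain and citrate cycle genes 4 were higher and 11 lower, and 16 and 3 without centring, so their direction rests on the scaling.

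Cell division genes were higher in marrow. Of 44 measured cell cycle genes 41 were higher and 2 lower, a median of 2.45, far above the 27.6% of all genes that were higher. Mki67, present in dividing cells, had 32, 42, 48 and 72 reads in culture and 353, 449 and 550 in marrow, 8.35-fold higher (3.06 ± 0.30, adjusted p = 2.5e-05). Top2a, a topoisomerase of mitosis, had 30, 41, 31 and 45 against 253, 271 and 342 (2.79 ± 0.20). Rrm2, a subunit of ribonucleotide reductase, had 9, 16, 11 and 10 against 177, 188 and 222 (3.88 ± 0.19), and the replication gene Cdc45 had 2, 3, 4 and 2 against 71, 71 and 83. The 2 lower members were the sliding clamp gene Pcna (243, 250, 213 and 304 reads against 128, 138 and 217, -0.86 ± 0.17) and the cyclin gene Ccnd1, which CSF1 induces (47, 50, 43 and 73 against 13, 34 and 13, -1.69 ± 0.42). The progenitor markers given above moved the same way, and their part was not tested.

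Of 56 cytosolic ribosomal protein genes 40 were higher and 0 lower, a median of 0.82. Of 73 mitochondrial ones 9 were higher and 3 lower, fewer than the shares over all genes, with a median of 0.08 (20 and 1 without centring, 5 higher without marrow library 2). Ribosomal protein genes have many processed copies, so their read assignment is uncertain. Genes of the ATF4 stress response were 10 higher and 4 lower of 24 (6 higher without marrow library 2), with Shmt2, a mitochondrial serine enzyme, 6.09-fold higher (27, 35, 20 and 14 reads against 137, 154 and 192). Of 30 genes of protein folding in the endoplasmic reticulum 3 were higher and 16 lower, against 9 and 5 without centring, so that list also turned with the scaling. Immediate early and heat shock genes, which respond within minutes to handling, were 6 higher and 14 lower of 31 (9 and 11 without centring). Atf3 had 876, 899, 790 and 486 reads against 8, 10 and 16 (-6.21 ± 0.19), and Ier2 had 25, 36, 24 and 20 against 93, 89 and 183 (1.96 ± 0.19).

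Adhesion genes lay on both sides. Of 28 chemokine receptor, integrin and adhesion genes 6 were higher and 12 lower, a median of -0.24. Itgax, the CD11c integrin chain, had 2289, 2670, 1871 and 1776 reads in culture and 10, 17 and 19 in marrow, 157-fold lower (-7.30 ± 0.18, adjusted p = 2.1e-08). Itgal, the LFA-1 chain of leukocytes, had 13, 11, 4 and 2 against 208, 219 and 314 (5.05 ± 0.47). Cxcr4, the receptor that holds cells in marrow, was 2.68-fold higher in marrow (65, 75, 64 and 37 reads against 166, 151 and 225). The chemokine gene Cxcl16 had 70, 72, 44 and 45 reads against 0, 1 and 0.

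The same contrast of settings was then taken in the control libraries, which share no library with the IL4 groups, to see which differences were there without added IL4. Between marrow control and culture control 4734 genes (50%) differed, 2291 higher (24.2%) and 2443 lower (25.8%). These control calls come from a fit of all libraries, in which the spread is pooled with that of the IL4 libraries. The calls with IL4 come from a fit of the IL4 libraries alone. In the fit of all libraries the IL4 contrast gave 2775 genes higher and 2762 lower. Shared calls and list counts with IL4 and in controls, here and below, therefore compare unlike fits. Higher in marrow in both contrasts were 1586 genes and lower in both 1789, which is 64.2% of the genes called with IL4 and 71.3% of those called in controls. Called on opposite sides were 155 genes, 60 higher with IL4 and lower in controls and 95 the reverse. The interaction, which tests whether the difference between settings itself differed with IL4, was called for 1789 genes (18.9%), 900 higher (9.5%) and 889 lower (9.38%). Without centring it was higher for 1575 genes and lower for 611. By the fitted differences of these 1789 genes, 771 lay on the same side in both contrasts and were larger with IL4, 301 lay on the same side and were smaller with IL4, and 717 lay on opposite sides, whether or not either contrast was called. Of the 1789, 375 were not called with IL4.

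The 7 neutrophil markers were higher in marrow with IL4 and in controls, and 1 of them, Chil1, was called in the interaction. Of the 26 macrophage identity genes 23 were lower in marrow with IL4 and 18 in controls, but in the interaction 5 were called higher and 11 lower, so the difference itself differed with IL4 for 16 of them. Among genes not called in the interaction, Gpnmb differed by -12.51 with IL4 and -11.25 in controls (interaction adjusted p = 0.14), Csf1r by -3.53 and -3.07 (0.32), and Hmox1, of the iron and heme list, by -2.93 and -2.98 (0.93). A p that misses the threshold does not show that these differences were equal.

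Several effector genes stood higher in marrow than in culture in the controls but not with IL4. Chil3 differed by 9.53 in controls and -0.36 with IL4 (interaction -9.89, adjusted p = 1.4e-08), with 2, 6, 2 and 2 reads in culture controls and 2426, 2739 and 2205 in marrow controls. Ear2 differed by 5.94 in controls and -2.29 with IL4. Fn1 turned from 2.81 without IL4 to -4.74 with it (interaction -7.55, adjusted p = 7.2e-07), and Irf4 from 3.12 to -2.01. For Retnla both control groups were at 0, so its interaction of -2.24 rests on the IL4 libraries alone, as it does for Rnase2a.

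C1q and resident genes went the other way, being closer between settings with IL4 than without, or turned. C1qb differed by -7.70 in controls and -3.11 with IL4 (interaction 4.59, adjusted p = 2.8e-06), with 1455, 916, 874 and 940 reads in culture controls and 5, 4 and 5 in marrow controls. Mrc1 differed by -6.17 and -3.13 (interaction 3.03, adjusted p = 0.00027), and Stab1 by -9.51 and -4.97. Slc40a1 did not pass in controls (-1.46, adjusted p = 0.13) and was 5.58 higher with IL4 (interaction 7.03, adjusted p = 0.00048), with 359, 265, 308 and 474 reads in culture controls and 153, 95 and 152 in marrow controls. Axl turned from -3.61 to 3.03 (interaction 6.64) and Hgf from -1.44 to 3.79 (5.23). Of 19 resident marrow genes 15 were lower in marrow in controls and 10 with IL4, and 10 had a higher interaction and 3 a lower one. Of 12 class II genes 2 were lower in controls and 11 with IL4, and 8 had a lower interaction. The interferon list had 11 higher of 40 in controls and 24 with IL4, with 14 higher and 5 lower interactions. Oas2 differed by -0.13 in controls and 5.24 with IL4 (interaction 5.37, adjusted p = 0.00011). The cell cycle list had 34 higher in controls and 41 with IL4, with 2 higher and 1 lower interaction.

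The mean level of a whole list, taken over its genes relative to their mean in the IL4 libraries, showed where the control libraries lay. On the cell cycle list culture IL4 libraries stood at -1.33 to -0.61 and marrow IL4 at 1.32 to 1.53, below the marrow controls at 2.22 to 2.33. Culture control libraries 1 to 3 stood at 0.97 to 1.19 and culture control library 4 at -0.51, all above culture IL4 and below marrow IL4. In both settings the IL4 libraries thus lay below their own controls on this list. On the interferon list the culture IL4 libraries stood at -0.81 to -0.18 and the marrow IL4 libraries at 0.46 to 0.88, while the culture controls reached 0.51 to 1.05 and the marrow controls 1.21 to 1.30. In both settings the IL4 libraries were thus below their own controls on the interferon list. On the class II list marrow IL4 (-1.63 to -1.01) overlapped both control groups (-1.84 to -0.42 in culture, -2.35 to -1.56 in marrow), and culture IL4 stood above all of them at 0.90 to 1.33. The lysosome list stood at 0.99 to 1.03 in culture IL4 and 0.41 to 0.79 in culture controls, so that the treatments did not overlap in culture, and at -1.43 to -1.31 in marrow IL4 and -1.62 to -1.43 in marrow controls. In the interaction 6 of its 43 genes were called higher and 10 lower. On the glycolysis list culture IL4 library 4 stood at -0.50, just below the lowest marrow IL4 library at -0.46, and the other culture IL4 libraries at 0.40 to 0.52. On the cholesterol list that same library was the highest, at 1.16 against 0.0034 to 0.48 in the other 3.

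**Figure D4:**
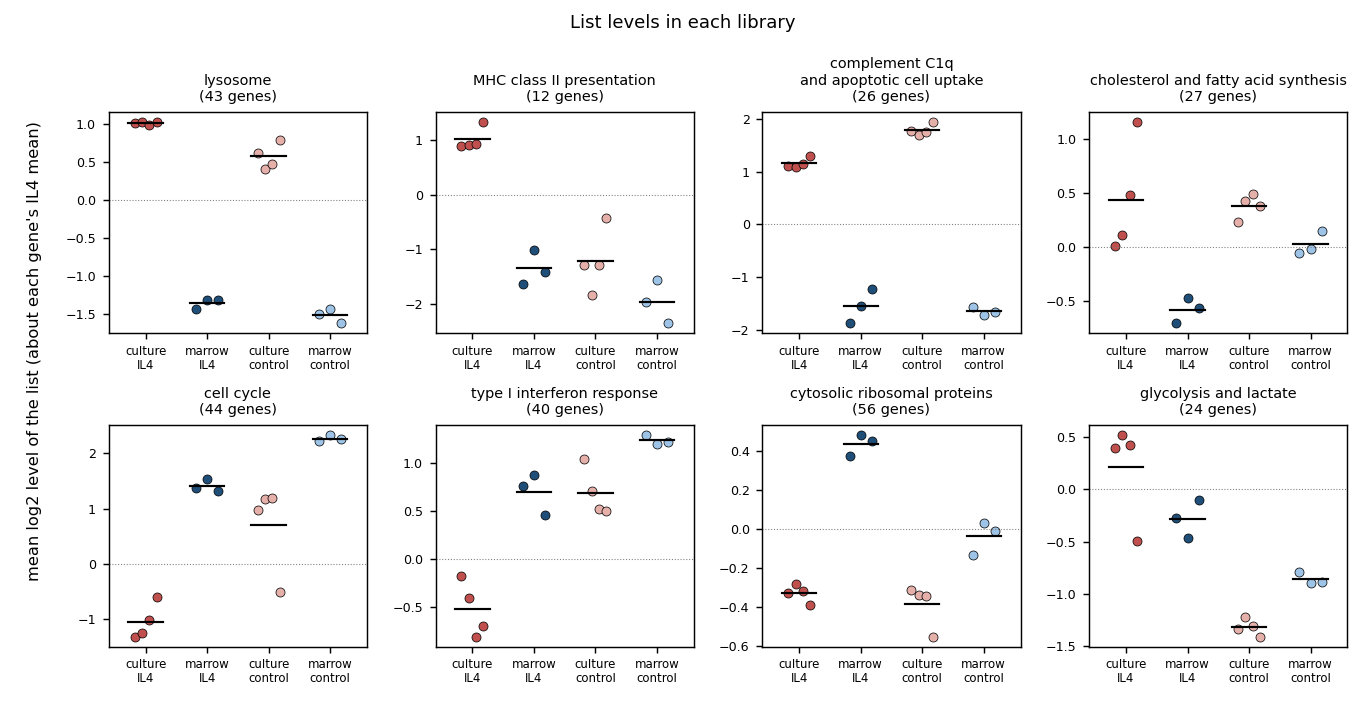
Mean log2 level of 8 gene lists in each library, relative to the mean of each gene over the IL4 libraries, for the 4 groups, with points for libraries and bars for group means. The lysosome list sits near 1 in culture IL4 and below -1.3 in marrow IL4, the cell cycle list lies the other way, and culture IL4 library 4 stands apart on the glycolysis and cholesterol lists.

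**Figure D5:**
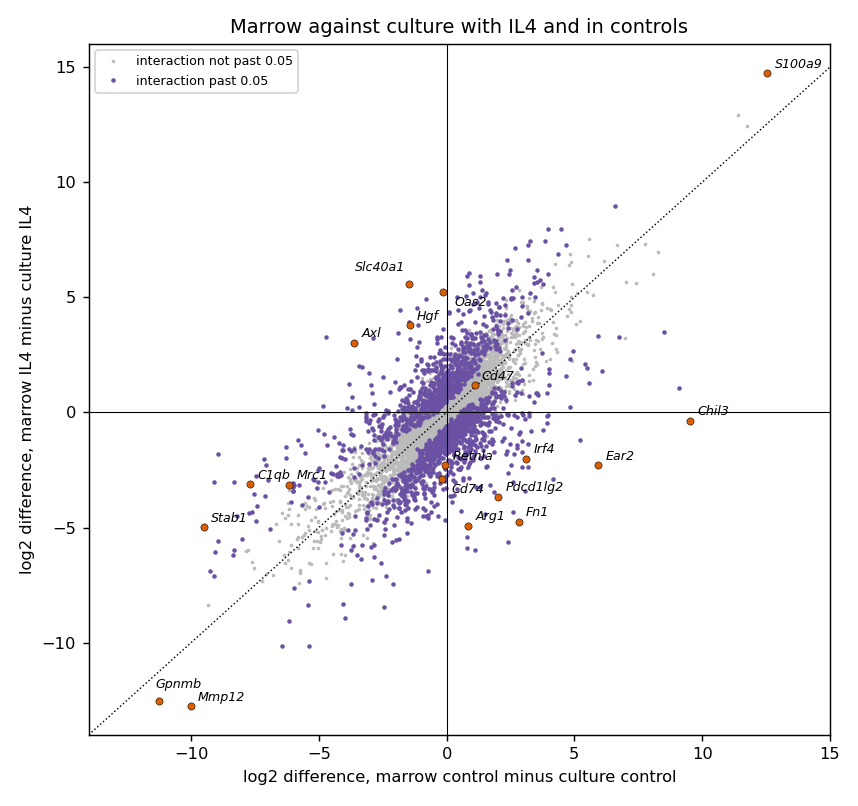
Log2 difference between marrow and culture for each of 9474 genes, in controls (horizontal) and with IL4 (vertical), with genes past an adjusted interaction p of 0.05 in colour and the line of equality dotted. S100a9, Gpnmb and Cd47 lie near the line, Slc40a1, Axl and Hgf above it and Chil3, Ear2 and Fn1 below it.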

How the data were processed

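RNA was sequenced from 4 culture IL4 and 3 marrow IL4 libraries, with 7 control libraries. The submitters' processing notes name TopHat2 2.0.13, bcl2fastq and the build mm10. How reads were counted, filtered by gene, normalized and assigned by strand is not given in the sources used here. The authors' deposited library values are on a log2 scale: each equals log2(reads + 0.5) plus an offset for the gene and another for the library. Whole reads were recovered on that basis for 9446 of 9474 genes, to within 0.00061 (log2) where reads were under 100, and 28 genes have log2 values only. Because of the gene offset, levels are not compared between genes. The deposited p-value and q-value columns and the deposited fold change ratio of the authors compare IL4 with control within each table and were not used here. Per-sample columns not used: 0.

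Both tables were joined on gene symbol, each library was centred on its median, and limma 3.58.1 in R 4.3.3 with a variance trend was fitted to the log2 values of the 7 IL4 libraries (5 residual degrees of freedom), or of all 14 for the control contrast and the interaction (10). P-values were adjusted by Benjamini-Hochberg over all genes, with a threshold of 0.05. The design foresaw log values, so no other test was substituted. The scripts were tested on simulated data, where 2-fold changes were recovered only in part, so an uncalled gene may still differ. The pass mark of that test was loosened once after its first run. Ratios of reads have exact 95% intervals, and a group at 0 is set to a floor of 3 reads over the group. Genes were named by rule: the 10 largest called differences in each direction with no overlap and mean reads at or above the 25th percentile, without predicted genes, then the 2 smallest p in each direction of each list, and a fixed set (Cd47, Sirpa, Il4ra, Stat6, Emr1, Csf1r, Mrc1, Chil3, Retnla and Arg1). Other list members are named with their values, and some genes are not reported here. Il4 itself is not analysed here. The groups, the 29 program lists and the 11 marker lists were chosen with earlier results of these data known, and the genes named for other lineages after their values were seen. Coordinates are from GENCODE M21 (GRCm38). Alternatives were other scalings, filters, fits and left-out libraries.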

Additional observations from a re-analysis of the deposited data

Results flagged for a closer look

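Of the genes named here, 124 were followed in the counts below, without Socs1, Socs2, Kdm6b, Myc, Tfec, Bcl6, Rela and Ccr3. In the 4 culture IL4 libraries, a single library stood far from the others of its group for 17 of these 124 genes. In 13 of those 17 it was culture IL4 library 4. It was the highest library, in centred log2 level, for Retnla (8.32), C1qc (4.29), Cd74 (8.62), H2-Ab1 (5.33), Pcna (4.79), Ccnd1 (2.16) and Chil1 (-6.68). It was the lowest for Arg1 (3.58), Itgam (5.61), Cd274 (2.35), Slc2a1 (2.23), Ldha (4.25) and Atf3 (3.92). Culture IL4 library 3 was the lowest for Abca7 (4.12) and H2-T23 (2.50), and library 1 the lowest for Cd34 (-6.54) and Rab44 (-5.22). Chance marks about 1 in 20 groups in this way, and over all 9474 genes 595 (6.28%) were marked, 259 of them for library 4 and 100 to 125 for each of the others. Cd34, Chil1 and Rab44 have at most 5 reads in each culture IL4 library, where 1 read moves the level. Marrow groups of 3 libraries were not examined in this way.

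The difference between marrow and culture was itself different with IL4 and in controls for 76 of the 124 genes, by the interaction over all 14 libraries. Over all 9474 genes it was called for 1789 (18.9%). Many of the 124 were named for their differences or as IL4 response genes, so their count says nothing about genes at large. Values are the log2 difference with IL4 minus that in controls. Among the secreted products and receptors of alternative activation, it was above 0 for Mrc1 (3.03), Igf1 (2.53), Hgf (5.23), Anpep (2.34) and Cd163 (3.56). It was below 0 for Arg1 (-5.77), Retnla (-2.24), Chil3 (-9.89), Fn1 (-7.55), Rnase2a (-2.92), Ear2 (-8.23), Msr1 (-1.63), Pdcd1lg2 (-5.68), Clec7a (-2.72) and Mgl2 (-4.18). In IL4 signalling and its factors it was above 0 for Il4ra (1.95), Ptpn6 (1.41), Dusp6 (2.62) and Pparg (2.34) and below 0 for Irf4 (-5.12) and Cebpb (-3.91).

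Of identity and resident marrow genes, it was above 0 for Emr1 (1.72), Slc40a1 (7.03), Axl (6.64), Siglec1 (3.68), Stab1 (4.53) and Mertk (5.12) and below 0 for Cd68 (-1.50) and Itgam (-0.98). Of uptake and inhibitory genes, it was above 0 for Sirpa (0.58), Abca7 (0.87), C1qa (4.79), C1qb (4.59), C1qc (4.68), Fcgr3 (0.84), Fcer1g (1.06) and Siglece (4.16), and below 0 for Cd36 (-2.89), Trem2 (-1.63) and Thbs1 (-6.18). In presentation, interferon and inflammation it was above 0 for Nlrc5 (2.43), Irf7 (3.56), Oas2 (5.37) and Nfkbiz (2.73), and below 0 for Cd74 (-2.71), H2-Ab1 (-2.92), Ctss (-2.91) and H2-T23 (-1.65). In degradation, bone and lipid it was above 0 for Ctsd (1.14) and Rac2 (0.55) and below 0 for Ctsk (-4.97), Acp5 (-4.85), Mmp13 (-3.68) and Cybb (-0.62). In metabolism, division and stress it was above 0 for Ier2 (1.78) and Shmt2 (1.89) and below 0 for Slc2a1 (-2.25), Ldha (-1.35), Pcna (-1.42) and Atf3 (-2.69). Adhesion genes and markers gave Itgal (4.30), Cxcr4 (1.45), Itgax (-4.37), Cd34 (3.66) and Chil1 (2.38). Genes with the largest differences gave Pram1 (3.996), Rab27a (3.48), Tuba4a (3.58), Flrt2 (-4.75), Sdc1 (-5.97), Nes (-2.94) and Plk2 (-4.28), and genes named for other lineages Il7r (-5.32), Vwf (-3.98), Tfrc (-4.82) and Car2 (-8.03). For a gene at or near 0 reads in both control groups, such as Retnla, Rnase2a, Arg1 and Pdcd1lg2, the control difference depends on the 0.5 reads added before the log.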

How the results depend on the processing

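Without centring 4072 genes were higher in marrow and 1802 lower, and the interaction was higher for 1575 and lower for 611. With centring the interaction counts were 900 and 889, so their balance rests on the scaling. Interaction counts of single lists are given with centring only. Tested against a fold of 2, 733 genes were higher and 1028 lower. Leaving out each of the 7 libraries in turn gave 2188 to 2638 genes higher and 2366 to 2571 lower, and 703 to 957 and 764 to 894 for the interaction. Quantile normalization gave 2815 and 2511. With the replicate number as a block 2492 genes were higher and 2455 lower, and the block took the call from 1 of the 124 genes, Tgfbi (0.64). Samples with the same number did not deviate together (r of deviations 0.022, -0.029 and 0.0049). These values give no sign of pairing by number, but they cannot show that there was none.

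Of the 124 genes followed 116 passed, against 55.5% of all genes, and many of the 124 were named because they passed. Direction and side of the threshold were kept in every setting run by 97. The calls of Socs1, Socs2, Kdm6b, Myc, Tfec, Bcl6, Rela and Ccr3 were not followed across settings. Directions turned without centring for Stat6 (0.17), Chil3 (0.0603) and B2m (0.25), and with quantile normalization for Chil3 (0.33) and B2m (0.11). With each library left out in turn Spi1 ranged from -0.0670 (without marrow IL4 library 1) to 0.164, and Siglec1 from -0.0478 to 0.718 and Fcer1g from -0.0253 to 0.0861 (both lowest without marrow IL4 library 2). None of these passed with all libraries. Against a fold of 2, 19 of the 124 genes lost their call, among them Il4ra, Cd47, Mgl2 and Cd163. Ccl24 lost it with all 14 libraries in the fit (adjusted p = 0.06). Chil3 passed without culture IL4 library 4 (-0.43, adjusted p = 0.046) and with voom weights (-0.37, adjusted p = 0.0038). With 24 to 40 reads per gene at the median, genes of few reads have wide counting intervals. The cause of these changes was not tested.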

Other observations

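Some genes filed as markers of other lineages, chosen after their values were seen, were high in the culture IL4 libraries, which hold grown macrophages. Il7r, the interleukin-7 receptor chain of lymphocytes, had 594, 632, 532 and 365 reads in culture IL4 and 2, 3 and 4 in marrow IL4, a ratio of reads of 204 (interval 107 to 446). Vwf, the von Willebrand factor gene of platelets and endothelium, had 230, 219, 183 and 128 against 3, 0 and 6, and Sdc1, a plasma cell surface proteoglycan, had 466, 445, 344 and 277 against 0, 1 and 2. Tfrc, the transferrin receptor that erythroid and dividing cells use to take up iron, had 382, 315, 359 and 771 against 85, 75 and 149 (-2.29 ± 0.33), and in the controls the order was turned (2.53). Car2, a carbonic anhydrase of red cells and osteoclasts, did not pass with IL4 (1.07, adjusted p = 0.071) and was 9.09 higher in marrow in the controls. With IL4 it passed without centring (1.48, adjusted p = 0.018), with median-of-ratios scaling (adjusted p = 0.042), with voom weights (adjusted p = 0.019), without culture IL4 library 2 (adjusted p = 0.027) and without marrow IL4 library 1 (adjusted p = 0.044), and its adjusted p ran up to 1 (against a fold of 2) over the other settings.

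The remaining marker lists are given by count. Monocyte markers were 3 higher and 1 lower in marrow of 8 measured (2 lower without culture IL4 library 4), eosinophil markers 1 and 1 of 3, and the single mast cell and basophil marker was higher. Erythroid markers were 0 higher and 1 lower of 2, megakaryocyte and platelet markers 0 and 2 of 3, and B and plasma cell markers 1 and 3 of 4. T and NK cell markers were 1 and 1 of 3, dendritic cell markers 1 and 3 of 5, and endothelial and stromal markers 1 and 4 of 5. Of 9 measured chemokine genes 2 were higher and 4 lower. With so few measured members, these counts describe single genes rather than cell types.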
